A study of Mus musculus with 8 samples.

Results

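Gm42031, Rab4a, Wdfy1, Lrmda, Gm47601, Gm15446, Gm17494, Apol8 and Nnt were examined, 9 of the 54532 genes in the read count table of Gsdmd-/- and WT macrophages. The first 8 had been picked because their counts differed several-fold between the genotypes with little spread between replicates, so their differences are described here without a test. Nnt had been added as a gene known to differ between C57BL/6 substrains, and not for its counts, and was tested. The 8 libraries, 4 WT and 4 Gsdmd-/-, held RNA of bone marrow-derived macrophages (BMDMs), grown from marrow cells for 6 days with macrophage colony-stimulating factor and left untreated. Per the study's methods, WT marrow came from purchased female C57BL/6J mice aged 6 to 8 weeks. The Gsdmd-/- mice, a knockout of the gene for the pore-forming protein gasdermin D, were a gift from another institute and were kept at the university, and neither a backcross nor the use of littermates was stated. Colony of origin and loss of Gsdmd therefore differed together between the groups, and their parts in any difference below cannot be told apart. The number of mice behind the libraries was not stated, so p-values measure only the spread between these samples, and the spread between libraries may be technical.

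Inbred mouse colonies that are bred apart gather private mutations, and the substrains of C57BL/6 differ in known variants of this kind. Nnt encodes the mitochondrial nicotinamide nucleotide transhydrogenase, which makes NADPH, and C57BL/6J carries a deletion of several of its exons that most other strains lack. A targeted allele that was made in one strain and bred into another also keeps a stretch of donor chromosome around the target.

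Total counts lay between 14935114 and 16794810 per library. Gsdmd itself, the check of the labels, was counted 1213, 1039, 1121 and 1570 times in WT and 307, 243, 257 and 241 times in Gsdmd-/- libraries. Its level of 75.2 ± 14.1 CPM (counts divided by the TMM-scaled library total; SD, n = 4) in WT fell to 16.2 ± 1.56 CPM (SD, n = 4), which left 21.5% of its reads, with a log2 fold change of -2.22 ± 0.14 (SE, adjusted p = 4.67e-05, edgeR quasi-likelihood test with Benjamini-Hochberg adjustment). WT 2 and WT 3 stood apart from the other libraries on the first principal component, which held 43.6% of the variance, at 45.4 and 38.8 against -25.9 to -7.19 for the other 6. All 8 macrophage markers examined were present, with summed levels of 15316 to 23436 CPM in WT and 19385 to 23379 CPM in Gsdmd-/- libraries, while those of neutrophils, T cells, B cells, dendritic cells, mast cells and erythroid cells summed to at most 6.67 CPM in any library. Lyz2 made up most of the macrophage sum. In WT 2 and WT 3, Adgre1 and Mertk were higher, and the other macrophage markers lower, than in WT 1 and WT 4. Fcgr1 had 116 and 109 counts in WT 2 and WT 3, and 595 and 669 in WT 1 and WT 4.

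The genotypes did not overlap in any of the 8 genes picked by their counts. Gm42031, Rab4a, Wdfy1, Gm47601, Gm17494 and Apol8 were higher in Gsdmd-/- libraries and Lrmda and Gm15446 were lower. Over all 12911 genes tested, 449 (3.48%) were higher without overlap and 531 (4.11%) were lower, and nothing is read from the count of the 8, since this contrast chose them. The name of a near on-off gene applied to a part of them. Gm42031 was the only one with no read in a whole genotype. Gm47601 had at most 1 count in each WT library, and Gm15446 and Apol8 passed 3 counts, the number that a count of 0 allows, in 1 of 4 libraries of their lower genotype. Rab4a, Lrmda, Gm17494 and Wdfy1 were counted above that limit in every library of both genotypes. This limit was between 0.177 and 0.199 CPM in these libraries and covers counting error only.

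**Figure D1:**
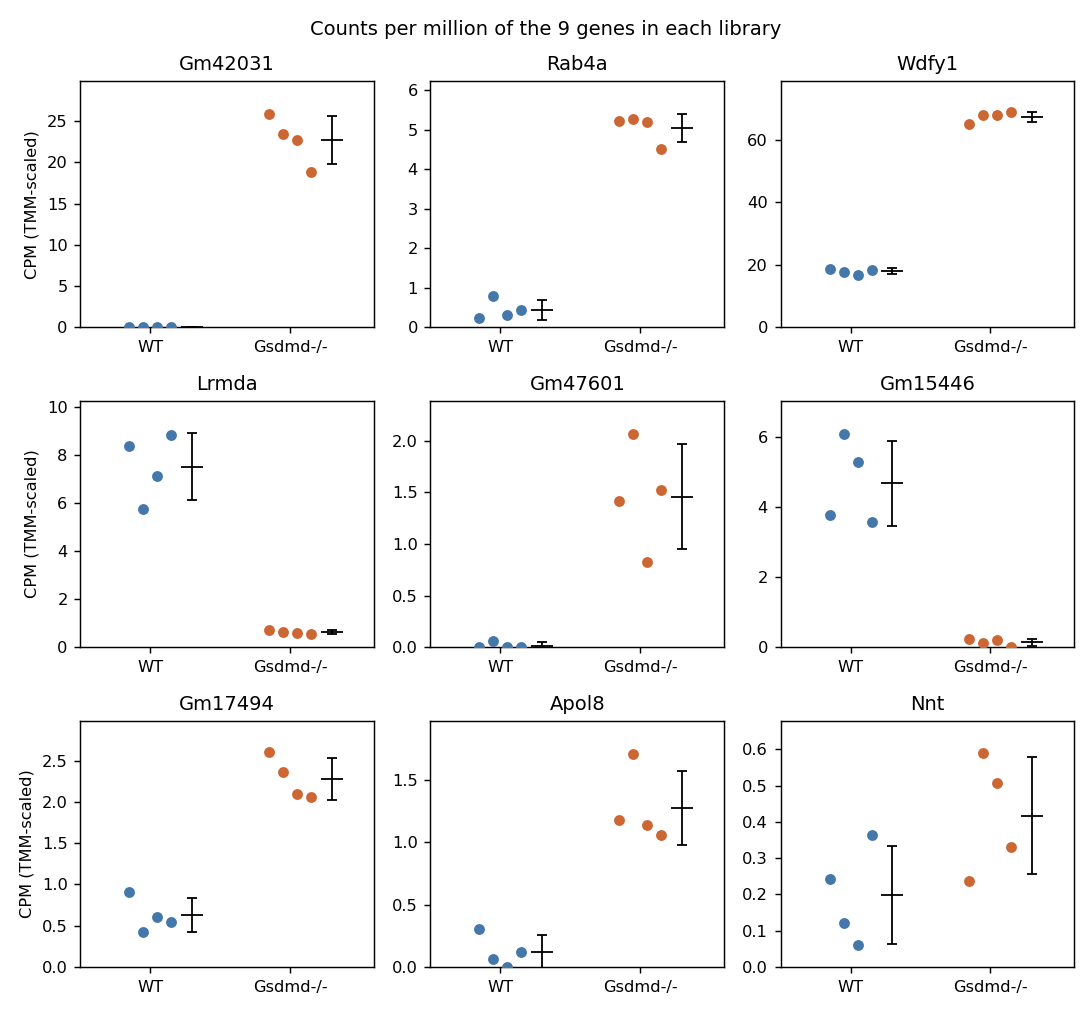
CPM (linear axis from 0) of the 9 genes in each library, with a point per library, a bar for the mean and whiskers for the SD (n = 4). The WT and Gsdmd-/- points are apart in every panel except that of Nnt, where WT lay between 0.0610 and 0.365 CPM and Gsdmd-/- between 0.237 and 0.591 CPM.

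Gm42031 is a long intergenic noncoding RNA of 2 exons on the minus strand of chr8:85125872-85132289 (GRCm38, the assembly of mm10, with GENCODE M21 genes). It had 0 counts in all 4 WT libraries and 437, 397, 358 and 285 counts in the Gsdmd-/- libraries. All Gsdmd-/- libraries thus lay far above all WT libraries, and Gsdmd-/- 4 was the lowest of them. Its mean in Gsdmd-/- was 22.7 ± 2.89 CPM (SD, n = 4), which was at least 124-fold higher than 3 counts in a single WT library. Other annotated transcripts hold most of its sequence. Stretches of at least 100 bases with at least 98% identity to 4 other genes covered 93.6% of its 1885 bases, so its reads are uncertain in origin. The longest such stretch, of 748 bases, was shared with Gm43305, which had 0 to 13 counts per library. Gm26880, with a shared stretch of 262 bases, had 0 to 4 counts in WT and 3 to 8 in Gsdmd-/- libraries. The remaining similar genes did not share the pattern of Gm42031, since Chd9 had 437 to 806 counts and Cnbd2 37 to 75 over the 8 libraries.

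Rab4a encodes a small GTPase of early endosomes that returns receptors to the cell surface by the fast recycling route, and lies on the plus strand of chr8:123805985-123835287, 38.7 Mb from Gm42031. It had 4, 13, 5 and 7 counts in WT and 88, 89, 82 and 68 in Gsdmd-/- libraries. The lowest Gsdmd-/- library held 5.68 times the CPM of the highest WT library, WT 2. Its mean was 0.442 ± 0.246 CPM in WT and 5.04 ± 0.358 CPM in Gsdmd-/- (SD, n = 4 each), an 11.4-fold difference. Rab4b, the other RAB4 GTPase, had 43 counts summed over WT and 40 over Gsdmd-/- libraries (log2 fold change -0.07, edgeR quasi-likelihood adjusted p = 0.957). No other transcript held a stretch of Rab4a at 98% identity, and the longest match, to Rab4b, was 76.4% identical.

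Of 24 genes of endosome recycling around Rab4a (RAB5, RAB11 and RAB14 GTPases, their effectors and EHD proteins), all were tested and 0 passed an adjusted p of 0.05 in either direction by the edgeR quasi-likelihood test, while 3 (12.5%) had an unadjusted p under 0.05, beside 12% of all genes tested. The same test called 45 of all genes tested, or 0.349%. The list's log2 fold changes had a median of 0.01, beside -0.01 over all genes tested. Rab11fip1, an effector of RAB11, had the lowest p (log2 fold change -0.39, adjusted p = 0.266).

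Wdfy1 encodes a phosphoinositide-binding FYVE and WD40 protein of early endosomes that takes part in TLR3 and TLR4 signaling through the adaptor TRIF. It lies on the minus strand of chr1:79702262-79776143 and had by far the most reads of the 9 genes. Its counts were 308, 291, 272 and 304 in WT and 1098, 1148, 1071 and 1037 in Gsdmd-/- libraries. Both groups were tight, with coefficients of variation of 5.36% and 2.43%, so that the nearest libraries were still 3.47-fold apart. The mean went from 17.9 ± 0.958 to 67.3 ± 1.64 CPM (SD, n = 4 each), or 3.76-fold. Of its exon bases 126 (1.94%) overlapped Mrpl44 on the other strand, and the log2 fold change of Mrpl44, a mitochondrial ribosomal protein gene, was -0.11 (adjusted p = 0.772, edgeR quasi-likelihood test).

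Wdfy2, the closest relative of Wdfy1, was at 110 CPM in WT against 112 in Gsdmd-/- (log2 fold change 0.02, edgeR quasi-likelihood adjusted p = 0.968). Of 21 genes of FYVE proteins, phosphoinositide kinases and the TLR3 and TLR4 adaptor route, 20 were tested and 0 passed the adjusted threshold by the same test, with 1 (5%) at an unadjusted p under 0.05, under the 12% of all genes tested. That gene was Traf3, a ubiquitin ligase downstream of TRIF (log2 fold change -0.23, adjusted p = 0.398). Tlr3, Tlr4 and Ticam1, which encodes TRIF, had log2 fold changes of 0.10, -0.08 and -0.24 (edgeR adjusted p = 0.815, 0.817 and 0.488).

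Lrmda, named for its role in melanocyte differentiation, encodes a leucine-rich repeat protein that binds RAB32 and RAB38, the GTPases of melanosomes and other lysosome-related organelles. The gene spans 1036374 bases on the plus strand, chr14:22019712-23056085. Its counts were 138, 94, 117 and 145 in WT and 12, 11, 9 and 8 in Gsdmd-/- libraries. WT 2 was the lowest WT library, yet it held 8.08 times the CPM of the highest Gsdmd-/- library. The mean went from 7.52 ± 1.39 to 0.615 ± 0.0805 CPM (SD, n = 4 each), a 12.2-fold difference. Melanocyte markers were near absent, with Tyr, Tyrp1 and Dct at 0 in all 8 libraries and the 5 markers examined summing to 0.427 to 1.09 CPM in WT and 0.570 to 1.00 CPM in Gsdmd-/-, most of it Pmel.

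Gm47601 lies inside Lrmda on the same strand, chr14:22927926-22933500, and is annotated as a sense intronic RNA of 3 exons. In the transcripts Lrmda-201 and Lrmda-206 it sits in intron 6, 122 kb before the last exon. The pair differed in opposite directions. Gm47601 had 0, 1, 0 and 0 counts in WT and 24, 35, 13 and 23 in Gsdmd-/- libraries, where its mean was 1.46 ± 0.510 CPM (SD, n = 4). Its single WT read, in WT 2, makes the size of the fold uncertain (a fitted log2 fold change of 6.00, and of 7.58 without WT 2), and the nearest libraries were 4.50-fold apart when WT was set to 3 counts. Since RNA of a retained or unspliced intron also falls on an intronic gene, the table cannot say whether these reads came from a transcript of Gm47601 or from the primary transcript of Lrmda. The promoter of Lrmda and the first exon of Gm47601 are shown because these neighbours on one strand differed in opposite directions. The promoter is chr14:22019462-22019761, plus strand, from RefSeq (GRCm38.p6), and the exon is chr14:22927926-22928025, plus strand, from the GENCODE M21 transcripts. Capitals mark motifs found in the promoter.
Lrmda promoter: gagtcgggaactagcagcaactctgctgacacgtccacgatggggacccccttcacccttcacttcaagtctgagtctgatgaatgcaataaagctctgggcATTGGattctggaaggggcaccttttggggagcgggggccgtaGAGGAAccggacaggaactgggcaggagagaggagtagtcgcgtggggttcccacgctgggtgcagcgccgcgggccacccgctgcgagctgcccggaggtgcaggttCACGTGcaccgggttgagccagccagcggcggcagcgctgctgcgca
Gm47601 exon 1: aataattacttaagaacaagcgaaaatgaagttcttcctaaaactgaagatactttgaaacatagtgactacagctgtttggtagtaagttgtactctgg
The capitals are, in order, a CCAAT box on the reverse strand 148 bases before the start, the core GAGGAA bound by ETS factors such as PU.1 at 105 bases before it, and the E-box CACGTG 3 bases after it. The share of all 32851 promoters of 300 bases that hold these letters on either strand was 37.4%, 28.3% and 7.15%. The TATA box TATAAA, the GC box GGGCGG and the AP-1 motif TGANTCA were also searched, and are in 13.6%, 35.7% and 7.81% of promoters. None of these 6 motifs was in the promoters of Gm15446 or Apol8. The table held promoters of 4 of the 9 genes, and the fourth, that of Gm42031, was not used here because most of its transcript is shared with other genes.

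Of 32 genes of lysosome-related organelles and melanosomes, 25 were tested and 0 passed the adjusted threshold by the edgeR quasi-likelihood test, with 2 (8%) at an unadjusted p under 0.05, beside 12% of all genes tested. Rab32 and Rab38, the partners of the Lrmda protein, had log2 fold changes of -0.03 and -0.07 (edgeR adjusted p = 0.922 and 0.944). Ap3s1, a subunit of the AP-3 sorting complex, had the lowest p (log2 fold change 0.29, adjusted p = 0.235).

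Gm15446 is a predicted protein-coding gene on the plus strand of chr5:109923400-109943936, in a cluster with the zinc finger gene Zfp932. Its counts were 62, 100, 87 and 59 in WT and 4, 2, 3 and 0 in Gsdmd-/- libraries. The lowest WT library held 15.2 times the CPM of the highest Gsdmd-/- library, the widest gap after Gm42031. The mean was 4.69 ± 1.22 CPM in WT and 0.136 ± 0.103 CPM in Gsdmd-/- (SD, n = 4 each), a 34.4-fold difference. WT 2 and WT 3 were the highest WT libraries for this gene and the lowest for Lrmda, and both genes kept their gap in WT 1 and WT 4. Stretches at 98% identity with 1010001B22Rik and Zfp932 covered 9.68% of its longest transcript. Zfp932, 52.6 kb away, had 79 to 134 counts in WT and 81 to 111 in Gsdmd-/- libraries (log2 fold change -0.10, edgeR quasi-likelihood adjusted p = 0.869).

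Gm17494 is a noncoding processed transcript on the minus strand of chr3:122255958-122293720. Its counts were 15, 7, 10 and 9 in WT and 44, 40, 33 and 31 in Gsdmd-/- libraries. Of the 8 genes it had the smallest gap, with the nearest libraries 2.25-fold apart. The mean was 0.624 ± 0.206 CPM in WT and 2.28 ± 0.257 CPM in Gsdmd-/- (SD, n = 4 each), or 3.65-fold higher. It overlaps Gclm, the modifier subunit of the glutathione synthesis enzyme, on the other strand over 296 exon bases (3.52%), and Gm6061, also on the other strand, over 492 (5.84%). Stretches at 98% identity with 7 other genes, among them Zmynd8 at 654 to 1042 counts per library, covered 6.43% of its longest transcript. Whether the TruSeq kit used marks strand was not given, so reads there cannot be assigned to either gene. Gclm was at 299 ± 35.2 CPM in WT against 312 ± 57.9 in Gsdmd-/- (SD, n = 4 each; log2 fold change 0.06, edgeR quasi-likelihood adjusted p = 0.897).

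Apol8 belongs to the apolipoprotein L family and lies on the minus strand of chr15:77747798-77757003, 1.88 Mb from Gsdmd. It had 5, 1, 0 and 2 counts in WT and 20, 29, 18 and 16 in Gsdmd-/- libraries. The highest WT library was WT 1, and the nearest libraries were 3.49-fold apart. The mean was 0.122 ± 0.131 CPM in WT and 1.27 ± 0.297 CPM in Gsdmd-/- (SD, n = 4 each), a 10.5-fold difference that rests on few reads. Its fitted log2 fold change of 3.31 became 4.23 without WT 1 and 2.54 without WT 2 and WT 3. No other member of the family was counted at a level that could be tested. The 12 other Apol genes listed had sums of 0 to 4 counts in WT and 0 to 5 in Gsdmd-/-, with 1 and 5 for Apol9b.

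Nnt has a pair of gene entries on the minus strand of chr13. ENSMUSG00000025453, at chr13:119335448-119408997, had 4, 2, 1 and 6 counts in WT and 4, 10, 8 and 5 in Gsdmd-/- libraries, and ENSMUSG00000116207 had 0 in all 8. The genotypes overlapped, and Nnt did not pass the filter on low counts in any library. The sums were 13 and 27 counts, a rate ratio of 2.11 with a 95% interval from counting error alone of 1.05 to 4.45. The mean log2 CPM differed by 0.80 between Gsdmd-/- and WT, and the exact permutation test over libraries, two-sided, gave p = 0.143, where 4 against 4 libraries cannot go below 0.0286. Fitted without the filter, the log2 fold change was 1.06 ± 0.63 (SE, edgeR quasi-likelihood adjusted p = 0.652). Without WT 2 and WT 3 the difference in mean log2 CPM was 0.30, where 2 against 4 libraries cannot give an exact permutation p below 0.0667. A difference between genotypes in Nnt was thus not detected by the tests over libraries. The interval from counting error alone lay above 1, but it leaves out the spread between libraries. All 3339 exon bases of ENSMUSG00000116207 are shared with the other entry, of which they are 47.4%, and a counting tool that drops reads on more than 1 gene would leave these out. Whether that lowered the Nnt counts was not tested, since the tool is not given in the sources used here. The table gives reads per gene and not per exon, so the exons deleted in C57BL/6J could not be examined.

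Of 20 mitochondrial NADPH and redox genes, 18 were tested and 0 passed the adjusted threshold by the edgeR quasi-likelihood test, with 2 (11.1%) at an unadjusted p under 0.05, beside 12% of all genes tested. Gpx1, a glutathione peroxidase, had the lowest p of the list (log2 fold change 0.35, adjusted p = 0.318). Of 7 genes with known variants between C57BL/6 substrains, Nnt included, 2 were tested and 0 were called by the same test, with 0 at an unadjusted p under 0.05. Dock2 and Cyfip2, both regulators of the actin cytoskeleton, had log2 fold changes of -0.10 and -0.13 (edgeR adjusted p = 0.779 and 0.816). Crb1 had 1 count in WT and 0 in Gsdmd-/-, and Nlrp12 and Mmrn1 were at 0. Variants of this kind need not change a gene's read count, so these counts do not tell which substrain a library came from.

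Per kilobase of exon, the level in WT was highest for Lrmda and Wdfy1, at 2.77 ± 0.511 and 2.76 ± 0.148 CPM per kb (SD, n = 4 each), which differed by less than their spread. Gm15446 followed at 1.24 ± 0.322 and Rab4a at 0.251 ± 0.140 CPM per kb. Gm17494, Apol8 and Nnt, at 0.0741 ± 0.0245, 0.0411 ± 0.0443 and 0.0281 ± 0.0191 CPM per kb, lay within each other's spread or near it. In Gsdmd-/- the order was another one. Gm42031 at 12.1 ± 1.53 and Wdfy1 at 10.4 ± 0.252 CPM per kb led, followed by Rab4a at 2.87 ± 0.204. Gm47601 and Apol8, at 0.671 ± 0.234 and 0.430 ± 0.100, were within about the spread of each other, as were Gm17494 and Lrmda at 0.270 ± 0.0305 and 0.227 ± 0.0297 CPM per kb. Nnt and Gm15446, at 0.0592 ± 0.0229 and 0.0360 ± 0.0273, were lowest.

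A gap of at least 2-fold between the nearest WT and Gsdmd-/- libraries was rare, at 15 of 12911 genes tested (0.116%). With a mean of at least 1 CPM in one genotype there were 14, the 8 genes and 6 others, and these are described without a test because the same counts picked them. Gsdmd was 1 of the others, at 3.49-fold. Egr1, an immediate-early transcription factor, had 39 to 148 counts in WT and 608 to 1302 in Gsdmd-/- libraries. One of the entries of Ptp4a1, a tyrosine phosphatase, had 11 to 15 counts in WT and 31 to 51 in Gsdmd-/- libraries, while its other entry had 56 to 93 and 71 to 99. The remaining genes share a locus on chrX. Mid1, a microtubule-associated ubiquitin ligase, had 48 to 87 counts in WT and 7 to 21 in Gsdmd-/- libraries, and G530011O06Rik and Gm15247 lie within its span on the other strand. G530011O06Rik had 19, 96, 92 and 27 counts in WT, highest in WT 2 and WT 3, and 0 to 2 in Gsdmd-/- libraries. Gm15247 had 16 to 45 and 0 to 4.

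**Figure D2:**
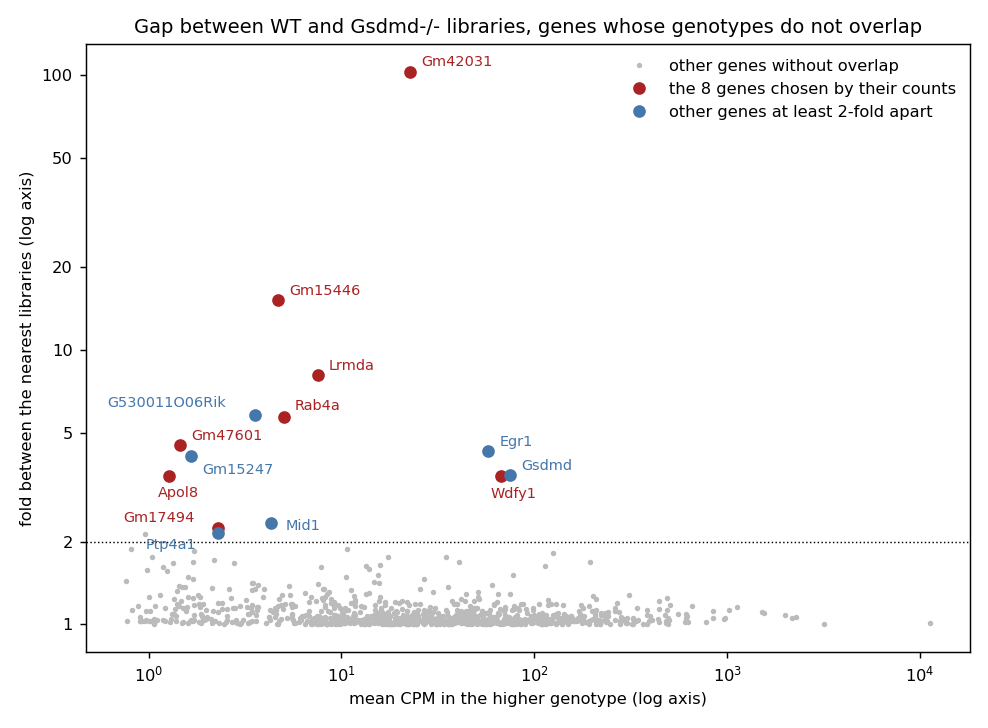
Each point is a tested gene whose genotypes do not overlap (980 genes), with its mean CPM in the higher genotype on the x axis and, on the y axis, the lowest CPM of the higher genotype over the highest of the lower one, or over 3 counts where that was more (both axes log). Only 15 genes lie above the dotted line at 2-fold, and Gm42031, at 103, lies far above the rest.

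The chromosomes around the genes show whether a difference extended beyond the gene itself, and the choice of the 9 did not use the neighbours. Within 1 Mb of the 9 genes 172 other genes were tested, and 2 of them (1.16%) passed the adjusted threshold of the edgeR quasi-likelihood test, beside 0.349% of all genes tested. Without WT 2 and WT 3, 3 of 174 neighbours (1.72%) passed it, beside 1.21% of all genes tested in that fit. At an unadjusted p under 0.05 there were 25 (14.5%), beside 12% of all genes tested. The genotypes did not overlap in 22 (12.8%), of which 14 were higher and 8 lower in Gsdmd-/-, beside 7.59%. The neighbours' log2 fold changes lay between -0.95 and 1.31, with a median of 0.03. Neighbours that share a chromosomal stretch are not independent of each other.

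Ier2, an immediate-early gene 463 kb from Gm42031, had 350, 211, 293 and 322 counts in WT and 774, 620, 714 and 544 in Gsdmd-/- libraries. Its log2 fold change was 1.19 ± 0.16 (SE, adjusted p = 0.0146, edgeR quasi-likelihood test), and the call was lost when WT 3 (adjusted p = 0.0597), Gsdmd-/- 1 (0.0822) or Gsdmd-/- 3 (0.0676) was left out. Among the genes called higher over the whole genome were also the immediate-early genes Egr1 on chr18 and Fos on chr12. Their log2 fold changes were 3.59 and 1.13 (adjusted p = 0.0059 each, edgeR quasi-likelihood test). Whether the rise of Ier2 belongs to the locus of Gm42031 was not tested. Galnt9, a glycosyltransferase gene 600 kb from Gm15446, had 1019, 909, 1045 and 1267 counts in WT and 663, 568, 680 and 560 in Gsdmd-/- libraries. Its log2 fold change was -0.76 ± 0.12 (SE, adjusted p = 0.0319, edgeR quasi-likelihood test), and the call was lost when WT 3 or any Gsdmd-/- library was left out (adjusted p between 0.0741 and 0.153). Neither Ier2 nor Galnt9 overlapped between genotypes.

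By locus, Gm42031 had 46 tested neighbours, of which 12 (26.1%) had an unadjusted p under 0.05 and 9 (19.6%) did not overlap. Its nearest, Zfp791 at 2.78 kb, had 9 to 21 counts in WT and 21 to 34 in Gsdmd-/- libraries (log2 fold change 0.93, edgeR adjusted p = 0.289), and Vps35, a retromer subunit at 128 kb on the other side, had a log2 fold change of 0.28 (edgeR adjusted p = 0.233). Rab4a had 30 tested neighbours and 0 calls, with 2 (6.67%) at an unadjusted p under 0.05 and 4 (13.3%) without overlap, of which Ccsap was higher and Tcf25, Vps9d1 and Cdk10 were lower in Gsdmd-/-. Its nearest were 2810455O05Rik at 3.27 kb (log2 fold change 0.48, edgeR adjusted p = 0.602) and, on the other side, Rhou at 142 kb (log2 fold change 0.21, edgeR adjusted p = 0.837). Ccsap, 5.54 kb from Rab4a and named here after its values were seen, had 58 to 77 counts in WT and 85 to 130 in Gsdmd-/- libraries (log2 fold change 0.73, edgeR adjusted p = 0.112).

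The other loci had 0 to 1 calls each. Wdfy1 had 7 tested neighbours, of which Acsl3 (14.3%) had an unadjusted p under 0.05 and no overlap (log2 fold change 0.50, edgeR adjusted p = 0.210), with Serpine2, a protease inhibitor gene, at 18.1 kb (log2 fold change 0.56, edgeR adjusted p = 0.557) and Ap1s3 at 30.3 kb (log2 fold change 0.29, edgeR adjusted p = 0.621). Lrmda had 10, all on its 5′ side, of which Adk (10%) had an unadjusted p under 0.05 and no overlap (log2 fold change 0.39, edgeR adjusted p = 0.321), the nearest being the transcription regulator Zfp503 at 30.1 kb (log2 fold change 0.05, edgeR adjusted p = 0.947). Gm15446 had 29, Galnt9 among them, with 2 (6.90%) at an unadjusted p under 0.05 and 1 (3.45%) without overlap, and Gm26779 at 32.3 kb had a log2 fold change of -0.04 (edgeR adjusted p = 0.979). Gm17494 had 13, of which 2 (15.4%) had an unadjusted p under 0.05 and 2 did not overlap between genotypes. Those without overlap were Bcar3, an adaptor of integrin signaling 0.416 kb away (log2 fold change 0.33, edgeR adjusted p = 0.248), and Gm4610 at 83.4 kb, with 7 to 13 counts in WT and 14 to 19 in Gsdmd-/- libraries (log2 fold change 0.85, edgeR adjusted p = 0.303). Around the same gene, Dnttip2 and Arhgap29 had log2 fold changes of -0.05 and 0.01 (edgeR adjusted p = 0.851 and 0.996). Apol8 had 23, of which 5 (21.7%) had an unadjusted p under 0.05 and 4 (17.4%) did not overlap, with C1qtnf6, Tst and Kctd17 higher and Cyth4 lower in Gsdmd-/-. Of these, C1qtnf6 at 766 kb had the lowest p (log2 fold change 0.75, edgeR adjusted p = 0.0861). The nearest were the myosin gene Myh9 at 3.58 kb (log2 fold change -0.24, edgeR adjusted p = 0.490) and Rbfox2 at 441 kb (log2 fold change -0.25, edgeR adjusted p = 0.767). Nnt had 14, of which 0 had an unadjusted p under 0.05 and 0 were without overlap, with Paip1 at 19.6 kb (log2 fold change 0.12, edgeR adjusted p = 0.691) and Mrps30 at 948 kb (log2 fold change 0.11, edgeR adjusted p = 0.835).

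**Figure D3:**
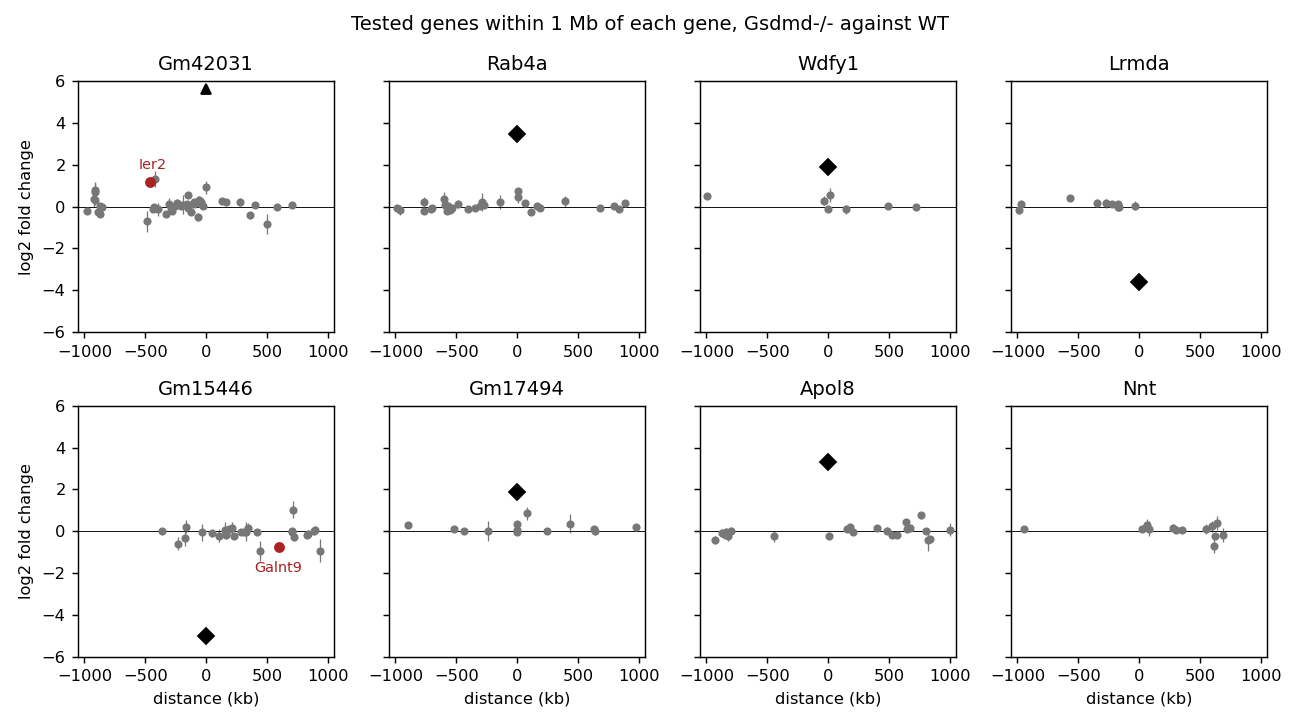
Log2 fold change (y axis, Gsdmd-/- over WT, whiskers SE) of the tested genes within 1 Mb against their distance in kb from each named gene (x axis, negative towards lower coordinates). Black diamonds are the named genes, the triangle marks Gm42031 beyond the axis at 11.53, Nnt has no mark because it was not tested, and Ier2 and Galnt9 (red) are the 2 neighbours called.

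Apol8 is the only one of the 9 genes on the chromosome of Gsdmd. Within 5 Mb of Gsdmd, 130 other genes were tested and 0 passed the adjusted threshold of the edgeR quasi-likelihood test, with 16 (12.3%) at an unadjusted p under 0.05, beside 12% of all genes tested. DESeq2 called 5 of these 130 (3.85%), beside 2.26% of all genes. The genotypes did not overlap in 12 (9.23%), beside 7.59% of all genes tested, and the median log2 fold change was -0.05. Gsdmd, at -2.22 on the log2 scale, lay outside the range of these genes, from -1.64 to 0.78. So did Apol8, at 3.31, but it was picked for its difference, so nothing is read from that.

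**Figure D4:**
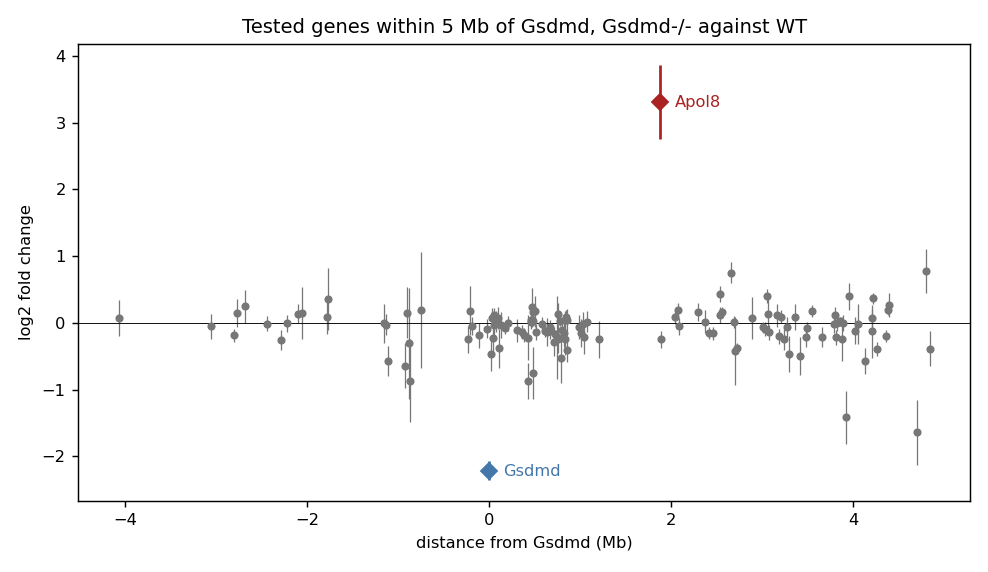
Log2 fold change (y axis, Gsdmd-/- over WT, whiskers SE) of the 130 genes tested within 5 Mb of Gsdmd (grey), of Gsdmd and of Apol8 against their distance from Gsdmd in Mb (x axis). Apol8, which was picked by its counts, stands at 3.31, 1.88 Mb from Gsdmd, among genes whose median is -0.05.

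The 3 genes most like each of the 9 were found by Pearson's r of log2 CPM over the 8 libraries, which is a description, since any pair of genes with a wide gap between genotypes gives a high r. The level of Gsdmd had r = 0.99 with Lrmda, -0.99 with Gm42031 and -0.98 with Gm47601. Znrf3 and Hdac5 were the nearest of Gm42031 (r = 0.99 and -0.99), and Wdfy1 had Zfp36, Hdac5 and Znrf3 (r = 0.99, -0.99 and 0.99). Rab4a was nearest to Slc31a1, a copper transporter, followed by Ccdc14 and Ahrr (r = 0.99, 0.98 and -0.98). Lrmda had Slc31a1 and Znrf3 after Gsdmd (r = -0.99 each), and Gm47601 had Ccdc14 and Neurl3 (r = 0.98 and -0.98). Gm15446 had Cep85, Tbkbp1 and Zbtb40 (r = -0.98, 0.97 and 0.97), and Gm17494 had the kinase Pim1, Cep85 and Dusp1 (r = 0.99, 0.99 and 0.98). Apol8 had Cab39, Cyth4 and Ryr1 (r = 0.99, -0.99 and -0.99). Nnt, whose genotypes overlapped and which had 1 to 10 counts per library, was most like Chfr, Nat2 and Fan1 (r = 0.99, 0.98 and -0.97). All these partners were picked as the highest of many genes over 8 libraries, where a high r can also arise by chance.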

How the data were processed

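RNA of 4 WT and 4 Gsdmd-/- BMDM cultures was made into TruSeq libraries and sequenced by a company. The authors deposited raw read counts per gene, whole numbers that were not normalized. The submitters' processing notes name mm10, and the aligner, counting tool and annotation are not given in the sources used here. Gene positions, types and exon lengths come from GENCODE M21 (GRCm38), and promoters from RefSeq (GRCm38.p6). Whether the kit marks the strand of reads is likewise not given.

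Samples were grouped by the genotype in their labels, and the 8 columns were matched to samples by name. In edgeR 4.0.16 (R 4.3.3), TMM scaling and filterByExpr (a cutoff of 0.607 CPM) left 12911 of 54532 genes, and 29193 had no count. The genotypes were compared by a two-sided quasi-likelihood test with no other term and Benjamini-Hochberg adjustment over all genes tested, and an adjusted p under 0.05 was a call. The median log2 fold change was -0.01. Nnt was tested by an exact permutation test of log2 CPM (prior count 2). Of the 9 genes, 8 passed the filter and Nnt did not. Gm42031, Gm47601, Gm15446 and Apol8 exceeded the cutoff in libraries of 1 genotype only. Rab4a, Gm17494 and Lrmda exceeded it in all 4 libraries of their higher genotype and in only 1, 2 and 2 of the lower. The tests were checked on simulated data with 200 changed genes. Similar transcripts were sought with blastn 2.17.0.

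Named were the 9 genes, Gsdmd, called genes within 1 Mb or otherwise the nearest tested gene on each side, called genes of 6 lists or otherwise the one with the lowest p, Rab4b, Wdfy2, genes with nearest libraries at least 2-fold apart and a mean of at least 1 CPM, and the 3 genes most like each by r. Other genes were named after their values were seen. The values of 1 gene of the substrain list are not reported here. The members, lists and tests were chosen with earlier results of these data known. Alternatives were RLE and upper-quartile scaling, DESeq2 1.42.0, limma voom (limma 3.58.1), no filter, a minimum of 10 counts per library, a replicate block, leaving out each library or WT 2 and WT 3, other windows, and a minimum log2 fold change of 1. The study's methods name limma and its legend edgeR.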

Additional observations from a re-analysis of the deposited data

Results flagged for a closer look

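In 25 groups of 4 libraries (the 9 genes, Gsdmd, Ier2, Galnt9 and Ccsap in each genotype, leaving out the group with no count), 2 held a library far from the others by Dixon's test, and chance alone flags about 1 in 20 groups. That rate does not hold for the genes picked for tight replicates. Rab4a had 4.51 CPM (68 counts) in Gsdmd-/- 4, below the other 3 Gsdmd-/- libraries, which is the library with the lowest total count. Gm47601 had 0.0610 CPM in WT 2, a single read where the other WT libraries had 0, a pattern that Dixon's test flags whatever the single value is.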

How the results depend on the processing

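The direction of the 8 genes picked by their counts is fixed by that choice and is no sign of stability. Of their 121 log2 fold changes under the alternatives, 114 moved by less than 1 SD between replicates. The 7 others were Gm42031 under DESeq2 and limma voom, Gm47601 under limma voom, without WT 2 and without WT 2 and WT 3, and Apol8 without WT 1 and without WT 2 and WT 3. Their log2 fold changes ranged from 9.54 to 11.63 for Gm42031, 5.15 to 7.58 for Gm47601 and 2.54 to 4.23 for Apol8. The fall of Gsdmd passed the threshold under every alternative. For Nnt the exact permutation p lay between 0.0857 and 0.257 with 1 library left out, where the smallest possible is 0.0286. Without WT 2 and WT 3, and with the replicate block, the smallest possible are 0.0667 and 0.125, so these say nothing of its stability. No list gained a call. Of all genes, 18 were called higher and 27 lower. These became 105 and 187 with DESeq2, 44 and 65 with no filter, and 53 and 108 without WT 2 and WT 3. Leaving out 1 library gave 8 to 28 higher and 5 to 56 lower. With a log2 fold change of at least 1, 15 were lower. The 2 calls within 1 Mb of the genes became 8 with DESeq2 (4.65%, beside 2.26% of all genes) and 4 with no filter, 0 to 4 with 1 library left out, and 1 within 500 kb. The 0 calls within 5 Mb of Gsdmd became 5 with DESeq2, 1 with no filter, 2 without WT 2 and WT 3, and 0 to 1 with 1 library left out. The cause of these shifts was not tested. Same-numbered libraries did not deviate together (r between -0.201 and 0.182). This gave no sign of pairing, but cannot exclude that same-numbered samples were handled together. With a replicate block, 9 genes were higher, 16 lower and 1 called within 1 Mb of the genes. Depth limits Nnt, Apol8, Gm47601 and Gm17494, which had at most 44 counts in any library.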
